A study of Rattus norvegicus with 4 samples.

Results

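S100b, Fabp7, Npy, Gfap, Vim, Nes and Cnp are 7 genes whose proteins are used to recognise olfactory ensheathing cells, Schwann cells and related glia. They were taken from the array by the gene name printed for each probe, which found 6 of them, and Cnp was found under its older symbol Cnp1. The 7 genes had 8 probes among the 41012 gene probes of the array, which carried 35655 gene names in all. Each of the 8 probes passed the filter on dim probes, as did 24833 of all probes. The arrays measured RNA, so every value below refers to the transcripts of these marker proteins.

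Olfactory ensheathing cells of male Fischer rats were grown in culture. Flow cytometry divided the cultures by their amount of p75, a neurotrophin receptor encoded by Ngfr, into a p75High and a p75Low population, each at 98% purity. Both populations came from the same kind of culture, strain and sex, and the labels name no other treatment and no age. The 4 biological replicates were pairs, and each pair shared 1 array, with p75High cDNA in Cy5 (red) and p75Low cDNA in Cy3 (green). Both cDNAs had been amplified by a global PCR before 250 ng of each was labelled, and the dyes were never exchanged, so a dye effect on a gene and a difference between the populations cannot be told apart. The sources used here do not tell whether a replicate was a separate animal or a separate culture, and p-values therefore measure only how far these samples spread, which may be technical. In bulk samples, fewer cells of a type and less RNA per cell cannot be told apart.

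Olfactory ensheathing cells are glia of the olfactory nerve that wrap the axons of olfactory sensory neurons on their way into the brain. They share many markers with Schwann cells, the glia of peripheral nerve. The markers described here fall into 3 kinds: soluble proteins (the calcium-binding protein S100b, the lipid carrier Fabp7 and the secreted neuropeptide Npy), intermediate filament proteins of the cytoskeleton (Gfap, Vim and Nes), and Cnp, a membrane-bound phosphodiesterase best known from myelin-forming glia.

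Each result rests on 60-base probes, of which 30 bases are shown to identify the stretch of transcript that was read. Positions are those of the array file, in rat build rn4, with the strand in brackets. The S100b probe covers chr20:12791899-12791958 (-), the Fabp7 probe chr20:36815975-36816034 (+), the Npy probe chr4:78045125-78045184 (+) and the Gfap probe chr10:92060835-92060894 (-). The Vim probe covers chr17:87851390-87851449 (+), the Nes probes chr2:180060663-180060722 (+) and chr2:180060869-180060928 (+), and the Cnp probe chr10:89524880-89524939 (+). Bases 1 to 30 are printed 5′ to 3′, except for Npy, where bases 31 to 60 are printed because they hold AATAAA, the polyadenylation signal, in capitals.
S100b: acagcgaatcgcggtttgttaccaagtacg
Fabp7: gttatccagctactgaagcactggtcacta
Npy: tatatgtgtgtttaAATAAAgtatcatgca
Gfap: agcaagacaaacattcagacagaaaggaaa
Vim: acaatgcttctctggcacgtcttgaccttg
Nes, probe 1: ggctgagcaagggaggtgagatcctcctga
Nes, probe 2: atttatctgacccttcatctcagcctgctg
Cnp: gcaaagggcgttggatgctgagcttggcga
The letters AATAAA, read on the strand of the probe, were in 1 of the 8 member probes and in 1749 of 41012 probes of the array (4.26%). A match is a description of the letters and not evidence of a used site. The probes ran from 35% (Npy) to 55% GC (Nes probe 1 and Cnp). The position of the probes relative to exons and untranslated sequence was not analysed here.

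Values are given in 3 forms. A level is the log2 intensity of a population's channel after background correction and loess normalization, a net signal is the spot brightness above its local background in scanner units, and a ratio is the log2 ratio of p75High over p75Low on an array. Ratios are summarised as mean ± SD over n = 4 arrays, with limma's adjusted p over all 24833 kept probes and a threshold of 0.05. Levels of different probes are not compared with each other. Loess works within an array, and the levels were not scaled between arrays. Net signals are not normalized between the dyes. Their median over all gene probes was 28.7 to 75.8 per array in p75High and 17.3 to 31.6 in p75Low. Well above background on an array were 22347 to 28007 probes in p75High and 22941 to 26121 in p75Low, and replicate 4 had the lowest number in both channels. The number of arrays limits the precision. Ngfr, the gene used for the sort, had ratios of 6.07, 6.17, 5.02 and 5.96, with a mean of 5.80 ± 0.53 (SE 0.34, adjusted p = 0.0262), a difference in the direction of the gates on each array.

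The comparison asked whether the marker transcripts differed between the p75High and the p75Low cells. All 8 probes had a mean ratio above 0, and Vim, Nes and S100b had the largest mean ratios, yet 0 of the 8 probes passed the threshold in limma. Over all kept probes 163 passed (0.656%), 65 of them higher (0.262%) and 98 lower (0.395%) in p75High. At an unadjusted p under 0.05, 4 of the 8 probes, for the 3 genes Vim, S100b and Nes, were higher and 0 were lower, where 5.74% of all kept probes were higher and 6.79% lower. The median ratio of the 8 probes was 2.93, and that of all kept probes was -0.03. A mean ratio above 3 was found for 4 member probes, both Nes probes among them, and for 2.26% of kept probes. The members were chosen with earlier results of these data known, so these values beside those of all kept probes are a description only.

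The spread between arrays was wide for most of the markers. Over all kept probes, the ratios of different arrays correlated with each other at 0.17 to 0.25. The median SD of the ratio was 2.14 for the 8 probes and 1.18 over all kept probes, and single members ran from 0.19 (Gfap) to 3.63 (Nes probe 1). An SD as large as that of Nes probe 1, or larger, was found for 4.72% of kept probes. A ratio above 0 on all 4 arrays was found for 3 of the 8 probes (S100b, Gfap and Vim) and for 12.4% of kept probes. In the same 3 probes every p75High level lay above every p75Low level, as in 4.88% of kept probes. Because levels were not scaled between arrays, this comparison also includes differences in brightness between arrays. The median of the 8 ratios was 2.09, 3.56, 3.59 and 0.07 in replicates 1 to 4, so replicate 4 had the lowest member median.

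**Figure D1:**
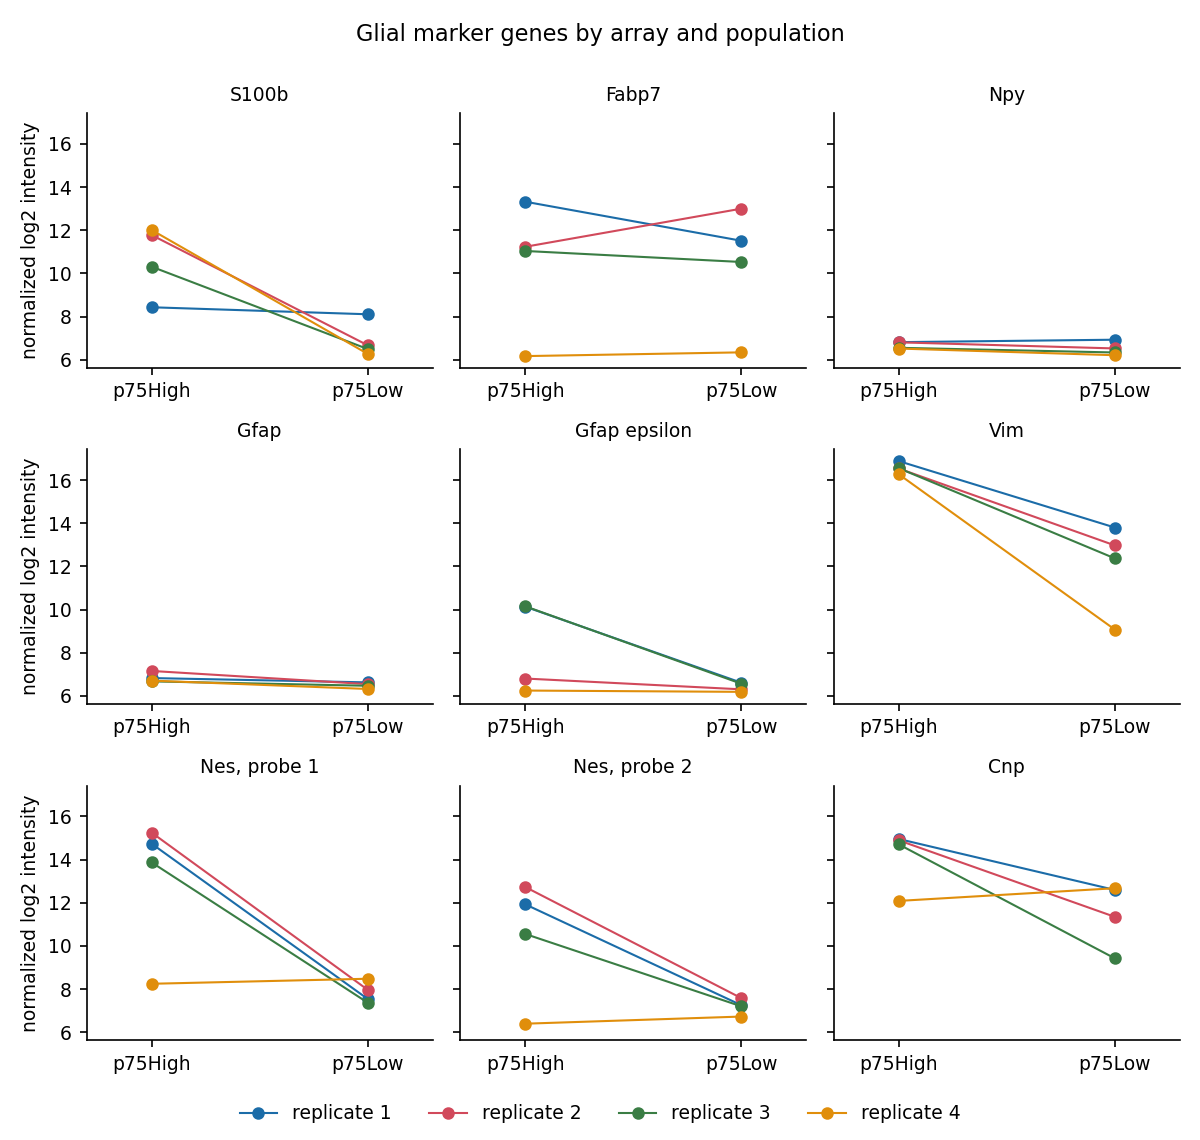
Levels (normalized log2 intensity, vertical axis) of each probe in the p75High (left) and p75Low (right) population, with a line joining the channels of an array and a colour for each replicate; the Gfap epsilon panel is a further Gfap transcript outside the 7 genes' probes. Vim lines fall to the right in all 4 replicates, those of Nes do so in replicates 1 to 3, and the Fabp7 lines cross.

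Among the soluble markers, S100b differed most between the populations. S100b had levels of 8.43, 11.78, 10.31 and 12.02 in p75High in replicates 1 to 4, against 8.11, 6.67, 6.50 and 6.27 in p75Low. All 4 p75High levels were above all 4 p75Low levels, but the gap was narrow in replicate 1, where p75High was at its lowest and p75Low at its highest. The ratios were 0.33, 5.11, 3.82 and 5.75, with a mean of 3.75 ± 2.42 (SE 1.01, 95% interval 1.1 to 6.40, adjusted p = 0.306 in limma). Without replicate 1 the mean ratio was 4.89, and with the scanner's own log ratios it was 5.66, which moved it by over 1.5 times. The p75Low net signals of replicates 2 to 4 (18.7, 8.78 and 12.9) lie below the background offset of 50, which compresses these ratios, so no fold is given.

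The S100b probe was spotted 10 times on each array, which shows how closely its spots agreed within an array. In p75High, net signals of the spots ran from 270 to 369 in replicate 1, 3756 to 4809 in replicate 2, 1396 to 1669 in replicate 3 and 3823 to 4580 in replicate 4. In p75Low they ran from 129 to 185 in replicate 1, 5.82 to 26.7 in replicate 2, 3.92 to 14.4 in replicate 3 and 7.36 to 17.8 in replicate 4. The low p75High and raised p75Low signal of replicate 1 was thus present in every one of its spots. In replicate 3, 2 of the 8 usable p75Low spots were well above background, so its p75Low level lies close to the detection limit.

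Fabp7, the brain-type fatty acid binding protein of ensheathing and radial glia, had no stable direction. Its levels were 13.33, 11.24, 11.04 and 6.17 in p75High, against 11.52, 13, 10.53 and 6.34 in p75Low. The groups overlapped, and both populations of replicate 4 were far below those of the other replicates, at net signals of 15.3 in p75High and 14.7 in p75Low. The ratios were 1.81, -1.77, 0.51 and -0.17, positive on 2 arrays and negative on 2. The mean was 0.10 ± 1.49 (SE 0.65, 95% interval -1.63 to 1.82, adjusted p = 0.957), and its sign turned with the scanner's ratios (-0.32), without replicate 1 (-0.48) and without replicate 3 (-0.04). In replicate 4 the p75High spot was not well above background.

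Npy, a neuropeptide that ensheathing cells of the olfactory nerve layer are known to make, gave a dim signal in both populations. Its levels were 6.82, 6.81, 6.56 and 6.52 in p75High, against 6.93, 6.53, 6.34 and 6.21 in p75Low. The groups overlapped, and replicate 1 alone had the lower value in p75High. The ratios were -0.11, 0.28, 0.22 and 0.31, with a mean of 0.17 ± 0.20 (SE 0.27, 95% interval -0.55 to 0.89, adjusted p = 0.80 in limma).

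The repeat spots of Npy show what this narrow ratio rests on. Mean net signals were 48.1, 68.4, 44.3 and 37.2 in p75High, against 31.9, 18.3, 10.9 and 7.52 in p75Low. All usable p75High spots were well above background on each array, while in p75Low 10 of 10, 10 of 10, 6 of 10 and 0 of 8 were. The background offset of 50 exceeds most of these signals, and the scanner's ratios, which have no such offset, averaged 0.76 (-0.31, 1.06, 0.79 and 1.51 by replicate). Neither ratio passed the threshold.

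**Figure D2:**
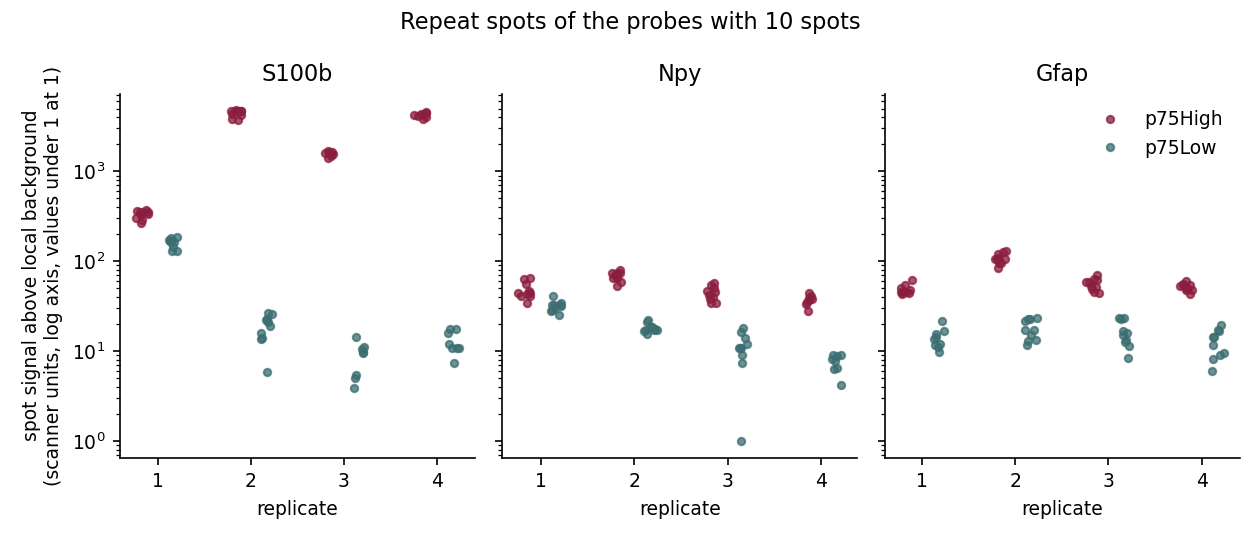
Net signal of every usable repeat spot (log axis, scanner units; values under 1 are drawn at 1) of the S100b, Npy and Gfap probes, by replicate, with p75High left of p75Low. In p75High the spots of an array lie close together, while S100b moves by over 10-fold between arrays; in p75Low the dim spots spread more widely, and Npy and Gfap stay under 132 in both populations.

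Of the filament genes, Gfap was dim in both populations, while Vim and Nes had the largest ratios of the 7 genes. Gfap, the filament of astrocytes that is also found in ensheathing and non-myelinating Schwann cells, had levels of 6.83, 7.16, 6.68 and 6.71 in p75High, against 6.63, 6.55, 6.47 and 6.32 in p75Low. All p75High levels were above all p75Low levels, with replicate 2 highest in p75High. The lowest p75High level (6.68) and the highest p75Low level (6.63) were close, and came from different arrays. The ratios were 0.20, 0.61, 0.20 and 0.39, with a mean of 0.35 ± 0.19 (SE 0.27, 95% interval -0.37 to 1.07, adjusted p = 0.614).

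Gfap was also read by 10 repeat spots. Mean net signals were 48.8, 108, 56.0 and 51.9 in p75High, against 14.1, 17.9, 16.4 and 12.7 in p75Low. Each p75High mean was above each p75Low mean, before any normalization between the dyes. The median net signal over all gene probes was also higher in p75High than in p75Low on each array, so this order is not particular to Gfap. In p75Low of replicate 1, 2 of 9 usable spots were well above background. The p75Low signals lie below the background offset of 50, which compresses the ratio of 0.35. With the scanner's ratios the mean was 1.07 (0.85, 1.62, 0.46 and 1.34 by replicate), which was positive on all 4 arrays as well and did not pass.

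A further probe on the array reads EF094477, described there as the epsilon form of GFAP, at chr10:92063083-92063142 (-). It lies outside the rule that chose the 7 genes, was picked after its values were seen and is counted in none of the totals. Bases 1 to 30 identify it beside the Gfap probe above.
Gfap epsilon: agtcacaagacatctcaaaaggctcacaat
Its net signals were 1290, 66.3, 1405 and 19.6 in p75High, against 15.8, 8.12, 12.3 and 7.19 in p75Low. Replicates 1 and 3 were high in p75High and replicates 2 and 4 were not, and p75Low was well above background on 1 of the 4 arrays. The ratios were 3.53, 0.50, 3.59 and 0.06, with a mean of 1.92 ± 1.90 (adjusted p = 0.432), and 3.71 with the scanner's ratios. The Gfap probe had ratios of 0.20 in both of the replicates in which the epsilon probe was high.

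Vim, which encodes vimentin, the filament of mesenchymal cells and immature glia, had the smallest adjusted p of the 7 genes. Its levels were 16.89, 16.54, 16.56 and 16.28 in p75High, against 13.80, 12.98, 12.37 and 9.08 in p75Low. The groups did not overlap, the SD of the levels was 0.25 in p75High and 2.07 in p75Low, and replicate 4 was far below the others in p75Low. The ratios were 3.08, 3.56, 4.18 and 7.20, with a mean of 4.51 ± 1.85, a 22.7-fold ratio (SE 0.79, 95% interval 2.43 to 6.59).

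The adjusted p of Vim was 0.156 in limma, so it did not pass the threshold, although its mean ratio ranked 144 of 24833. In the setting with no replicate block the channels of an array were treated as unpaired, and average intensities were first quantile-normalized between arrays. Vim passed there (adjusted p = 0.0446 in limma), and these changes were not tested separately. The net signal of Vim was 103216, 140251, 134363 and 96899 in p75High, against 16703, 5416, 3747 and 381 in p75Low. The p75Low signals of Vim thus differed by over 40-fold between replicates, and the p75High signals by under 1.5-fold.

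Nes, which encodes nestin, a filament of neural progenitors and immature glia, was read by 2 probes whose start positions lie 206 bases apart. Probe 1 had levels of 14.74, 15.25, 13.87 and 8.24 in p75High, against 7.54, 7.96, 7.37 and 8.48 in p75Low. Replicates 1 to 3 were far higher in p75High, and in replicate 4 the p75High level was low and slightly under p75Low, so the groups overlapped. The ratios were 7.20, 7.29, 6.51 and -0.23, with a mean of 5.19 ± 3.63, a 36.5-fold ratio (SE 1.48, 95% interval 1.28 to 9.10, adjusted p = 0.322).

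Probe 2 of Nes had the same shape over the arrays. Its levels were 11.93, 12.73, 10.55 and 6.39 in p75High, against 7.25, 7.58, 7.20 and 6.72 in p75Low. The ratios were 4.68, 5.15, 3.36 and -0.33, with a mean of 3.21 ± 2.48 (SE 1.03, 95% interval 0.50 to 5.93, adjusted p = 0.351 in limma). Net signals of probe 1 were 28362, 53355, 19045 and 255 in p75High, against 114, 121, 67.5 and 280 in p75Low. In replicate 4 both probes were well above background in both channels.

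The mean Nes ratio depends on replicate 4. Without it the mean ratio was 7.0 for probe 1 and 4.40 for probe 2, and probe 1 had an adjusted p of 0.10, which did not pass. A ratio above 3 in replicates 1 to 3 with a ratio within 1 of 0 in replicate 4 was found for 99 kept probes (0.399%), the 2 Nes probes among them. The like pattern with replicate 1 near 0, which S100b had, was found for 14 kept probes (0.0564%), with replicate 2 for 23 and with replicate 3 for 16. Ratios above 3 on all 4 arrays were found for 93 kept probes (0.375%), of which Vim was the only member.

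**Figure D3:**
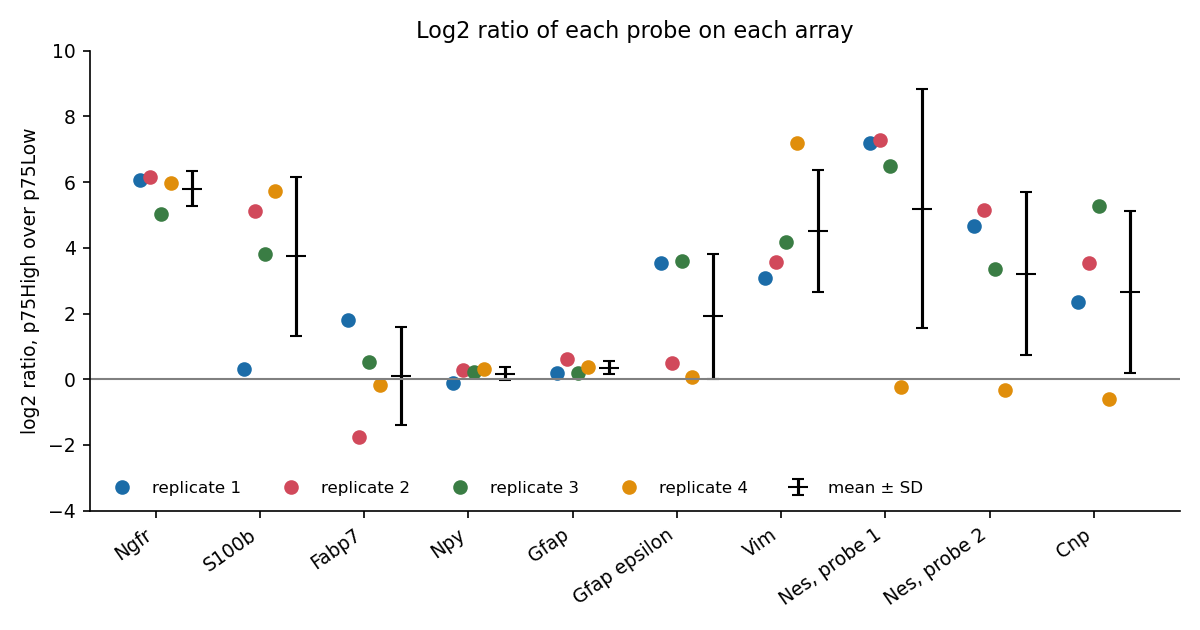
Log2 ratio of p75High over p75Low (vertical axis) on each array, a colour for each replicate, with mean ± SD in black, for Ngfr, the 8 probes and the Gfap epsilon probe. Ngfr lies between 5.02 and 6.17 on all arrays, S100b has 1 point near 0 (replicate 1), and both Nes probes and Cnp have theirs in replicate 4.

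Cnp, the phosphodiesterase of myelinating glia, had levels of 14.95, 14.89, 14.71 and 12.08 in p75High, against 12.59, 11.34, 9.42 and 12.67 in p75Low. Replicates 1 to 3 were higher in p75High and replicate 4 was not, so the groups overlapped. The ratios were 2.36, 3.55, 5.29 and -0.59, with a mean of 2.65 ± 2.47, a 6.29-fold ratio (SE 1.03, 95% interval -0.05 to 5.36, adjusted p = 0.405). Net signals were 29023, 43159, 34669 and 5145 in p75High, against 6654, 1766, 465 and 5370 in p75Low. Without replicate 3 the mean Cnp ratio was 1.77, and without replicate 4 it was 3.73.

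Replicate 4 therefore held the highest ratio of Vim and S100b and the lowest of Nes and Cnp. Fewer probes were well above background in this replicate than in the others (22347 in p75High), and the median net signal over all gene probes was 28.7 in p75High of replicate 4 against 52.8 to 75.8 in p75High of the other replicates. The part of signal strength in the member ratios was not tested.

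For each member the 3 genes with the nearest ratios over the 4 arrays were sought among 12729 probes, by the root mean square difference from its probe. Nearest to Nes were Gadd45a (0.32), Itga7 (0.43) and Serpinb6a (0.60), to Vim Abi1 (0.55), Pbx3 (0.64) and Stt3b (0.95), and to S100b Chl1 (0.35), Bcar3 (0.72) and Abcb4 (1.02). Cnp had Pfkfb4 (0.21), Ncoa6 (0.50) and Trak2 (0.51), and Fabp7 had Mrpl37 (0.25), Panx2 (0.36) and Recql (0.38). The dim members Npy (St8sia3, Lgi3 and Zdhhc9, 0.02 to 0.05) and Gfap (C18h18orf21, Or52l1 and Npr1, 0.06 to 0.08) had neighbours whose ratios were also close to 0. With 4 arrays such likeness is a description of these ratios only.

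The families of the markers were set beside them by lists of related genes, each gene read by its brightest kept probe. On that basis, 69 of 22161 genes were higher (0.311%) and 97 lower (0.438%) in p75High. Of 18 tested genes of the intermediate filament family, 0 passed in either direction, and the median ratio was 0.42 with the 3 members and 0.34 without them. Krt14, a keratin of basal epithelium, had a ratio of 1.57 ± 0.63 (adjusted p = 0.256), with 0.39 by its other probe. Prph, a filament of peripheral neurons, had -0.89 ± 0.78 (adjusted p = 0.456). Nes and Vim were the only genes of the family with a mean ratio above 2.

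Among 13 tested genes of the S100 family 0 passed, with a median of 0.10. S100a10, a partner of annexin A2, had ratios of 0.77, 6.60, 7.80 and 0.09 (mean 3.81 ± 3.95, adjusted p = 0.433), and S100a4, found in fibroblasts and Schwann cells, had 5.0, 0.35, 1.46 and 7.01 (mean 3.45 ± 3.09, adjusted p = 0.387). Neither followed the array order of S100b, and the other probes of S100a4 averaged 1.61 and 3.30. The 12 tested genes of the fatty acid binding protein family had a median of -0.03 and 0 past the threshold. Fabp4, the form of fat cells and macrophages, had -2.06 ± 1.35 (adjusted p = 0.329) and was well above background in p75High on 1 array and in p75Low on 4 arrays. With the scanner's ratios Fabp4 passed, at -4.68 (adjusted p = 0.0490). Crabp2, which carries retinoic acid, had 1.23 ± 1.62 (adjusted p = 0.523).

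Of 9 tested genes of the NPY family, its receptors and peptide processing, 0 passed and the median was 0.08. Cpe, the carboxypeptidase that trims neuropeptides, had ratios of 7.07, 6.56, 4.78 and 0.15 (mean 4.64 ± 3.15, adjusted p = 0.317) and was well above background in p75Low on 1 array. Npy1r, a receptor of NPY, had 0.85 ± 0.85 (adjusted p = 0.487). Of 14 tested oligodendrocyte and myelin genes, Cnp among them, 0 passed and the median was -0.52. Mog, a myelin surface protein, had 2.55 ± 1.92 (adjusted p = 0.348, 0.11 by its other probe), and Olig2, a transcription factor of oligodendrocytes, had -1.58 ± 1.35 (adjusted p = 0.401).

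**Figure D4:**
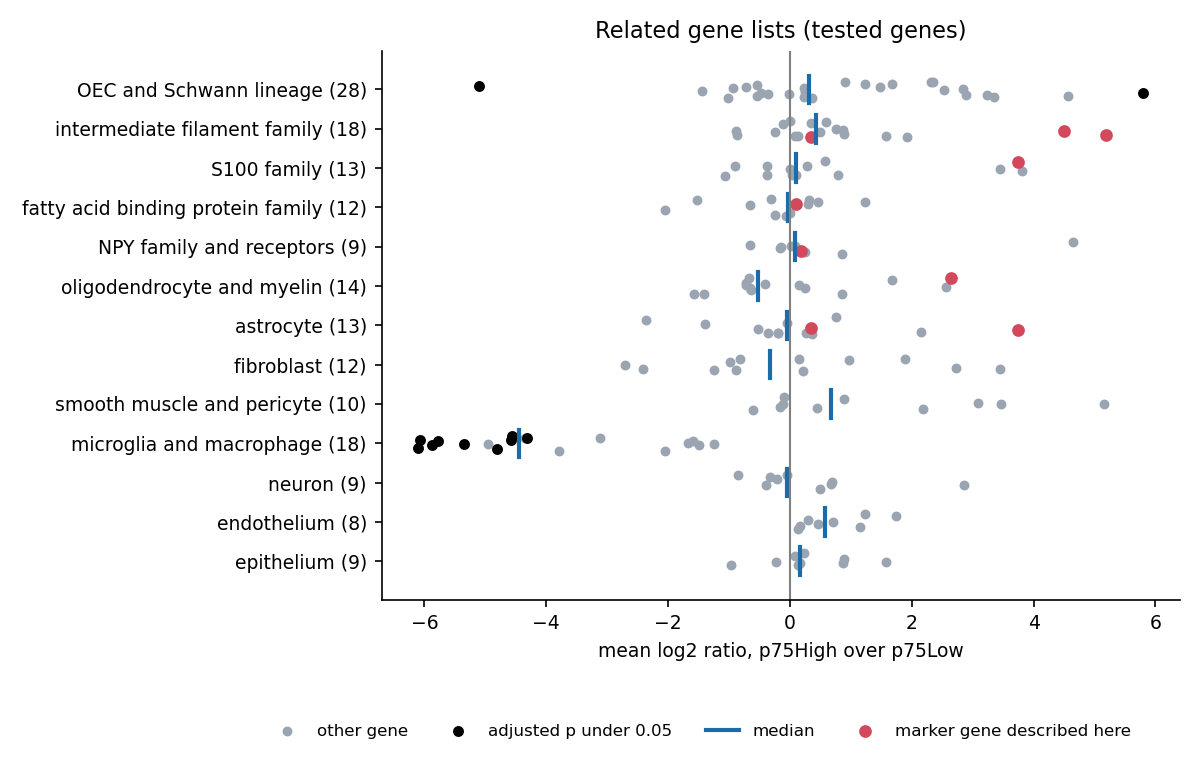
Mean log2 ratio of p75High over p75Low (horizontal axis) of each tested gene in 13 lists, with the number of tested genes in brackets; red points are the 7 marker genes, black points have an adjusted p under 0.05 and the blue line is the list median. The red points of Vim, Nes, S100b and Cnp lie right of 2.6, and the microglia and macrophage genes lie left of -1.

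Markers of cell types that the cultures could hold were read in the same way. Of 28 tested genes of the ensheathing and Schwann lineage, Ngfr was higher, Apoe, a lipid carrier of glia and macrophages, was lower (-5.11 ± 0.89, adjusted p = 0.0325), and 26 did not pass, with a median of 0.31. Of the 33 listed, 24 to 30 were above background per array in p75High and 24 to 29 in p75Low. Sox10, Egr2, Pou3f1, Gja1 and Aqp4 are named outside the rule for named genes, after their values were seen. Sox10, the transcription factor of neural crest glia, had ratios of 5.41, 4.75, 1.86 and 6.22 (mean 4.56 ± 1.90, adjusted p = 0.158). Egr2 and Pou3f1, of myelinating Schwann cells, were above background on 0 arrays in either population.

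Microglia and macrophage genes were lower in p75High, with 9 of 18 past the threshold, 0 higher, and a median of -4.45. Ctss (-6.11 ± 0.79), Csf1r (-6.08 ± 0.61) and Adgre1 (-5.87 ± 0.69), all genes of macrophages, each had an adjusted p of 0.0262. The other probes of Csf1r had -0.25 and 0.41. A summed signal adds the unlogged levels of the tested genes of a list, so the brightest probes weigh most in it. For this list it ran from 13905 to 18999 in p75High and from 276069 to 440450 in p75Low, and 17 or 18 of the 18 genes were above background in p75High. By replicate the list median was -4.61, -5.21, -5.0 and -3.88. The p75High sums thus lay below the p75Low sums in all 4 replicates, and the part of macrophage RNA in the marker ratios was not tested.

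Of 13 tested astrocyte genes 0 passed (median -0.05). Of the 16 listed, 12 to 14 were above background per array in p75High and 11 to 15 in p75Low. Among the rest, Gja1 was above background on 0 arrays and Aqp4 on 1 array in each population. Glul, which makes glutamine, had -2.37 ± 0.37 (adjusted p = 0.0716, -4.20 by its other probe), and Aldoc, an aldolase of astrocytes, had 2.16 ± 2.35 (adjusted p = 0.455). The summed astrocyte signal was 6162 to 13525 in p75High and 9090 to 21239 in p75Low.

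Of 12 fibroblast genes 0 passed by their brightest probe (median -0.33), and the summed signal was 59709 to 89973 in p75High and 25481 to 44629 in p75Low. Bright probes such as that of Col1a1 (levels of 15.42 to 15.85 in p75High) weigh most in this sum, which does not describe the list as a whole. Col1a1 had 2.73 ± 1.20 (adjusted p = 0.198), with 3.79 (adjusted p = 0.0363) and 3.56 by its other probes, and Col1a2, the partner chain of type I collagen, had -2.71 ± 1.48 (adjusted p = 0.265, -0.91 by its other probe). Of 10 smooth muscle and pericyte genes 0 passed (median 0.67), with Mcam at 5.15 ± 2.27 (adjusted p = 0.171, 2.48 by its other probe) and Cald1 at 3.46 ± 1.55 (adjusted p = 0.188, 0.06 and 0.60 by its other probes). The summed signal of the smooth muscle and pericyte genes was 31497 to 53441 in p75High and 4221 to 34777 in p75Low. Bright probes such as that of Mcam (levels of 13.95 to 15.35 in p75High) weigh most in it. Vim is also made by fibroblasts and macrophages and Nes by pericytes, and the part of these cells in the Vim and Nes ratios was not tested.

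Neuron, endothelium and epithelium lists had 0 genes past the threshold, of 9, 8 and 9 tested, with medians of -0.04, 0.58 and 0.17. Their named genes were Rbfox3 (-0.86 ± 0.37) and Syt1 (0.68 ± 0.16) for neurons, Cldn5 (1.23 ± 0.80) and Vwf (1.15 ± 0.77, 0.08 by its other probe) for endothelium, and Krt14 (1.57 ± 0.63, as above) and Krt8 (0.89 ± 0.94) for epithelium. Their adjusted p ran from 0.256 (Krt14) to 0.493 (Krt8) in limma.

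Processing settings that used all 4 arrays moved the ratios of some probes more than others. Over these settings, the mean ratio ran from 4.50 to 4.74 for Vim, 5.18 to 5.76 and 3.21 to 3.87 for the Nes probes, 2.65 to 2.85 for Cnp and 3.73 to 5.66 for S100b. It ran from 0.34 to 1.07 for Gfap, 0.16 to 0.76 for Npy and -0.32 to 0.22 for Fabp7. Leaving out each array in turn gave 3.61 to 4.98 for Vim, 3.08 to 4.89 for S100b and 4.49 to 7.0 for Nes probe 1.

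**Figure D5:**
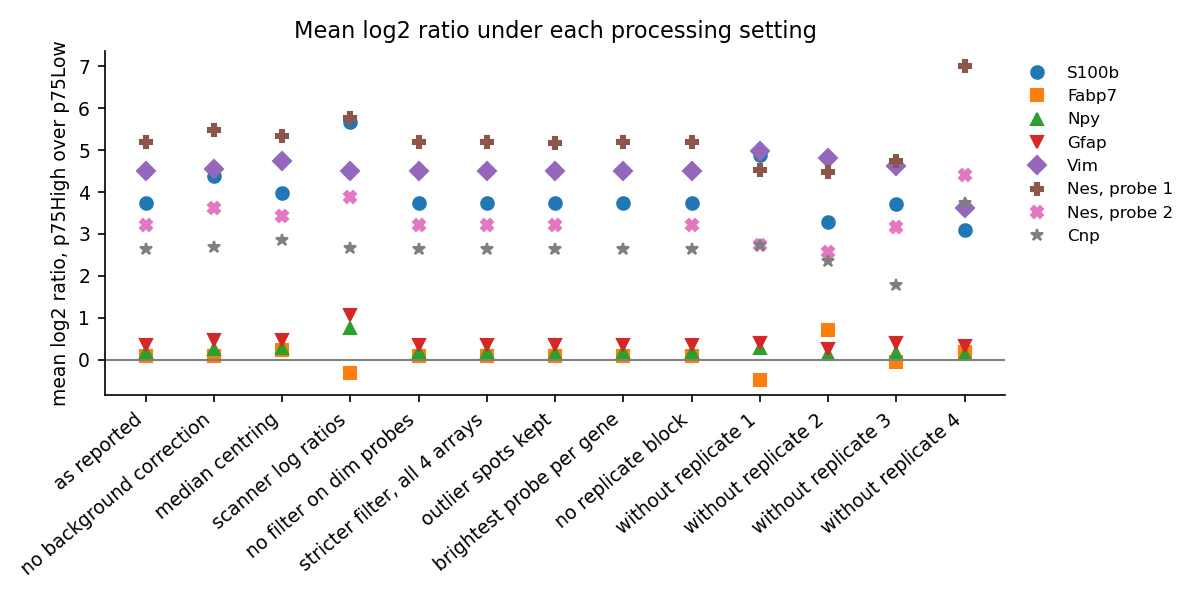
Mean log2 ratio of p75High over p75Low (vertical axis) of the 8 probes under each processing setting and without each replicate, a symbol for each probe; Nes probe 2 has no value under the brightest probe per gene. Fabp7 is the only probe that crosses 0, and S100b, Gfap and Npy are highest with the scanner's ratios.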

How the data were processed

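RNA of paired p75High and p75Low cells was read on 4 Agilent 2-colour arrays (design 014879) on 1 slide. Per the file headers, the intensity values that the authors deposited were mean spot and median local background brightness in each channel, without normalization, from Feature Extraction 10.5.1.1 (10.5 in the submitters' processing notes). Deposited log10 ratios (red over green), per the file headers, came from background-subtracted, dye-normalized signals; the authors' value table held the same log10 values (largest difference 0, column medians 0).

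Intensities were corrected with normexp (offset 50) and loess (span 0.3) in limma 3.58.1 under R 4.3.3. Of 173516 readings, 1112 marked as outliers (0.641%) were left out, control spots (1639 of 45018) had weight 0 and 0 spots were saturated. Repeat spots were averaged, and a probe counted as well above background when a share of at least 0.5 of its spots was. Probes so on at least 3 of 4 arrays in the same channel were kept. The ratio was tested against 0 with lmFit and eBayes, two-sided, with Benjamini-Hochberg adjustment over all kept probes, which was checked on simulated data. Probe names were updated by RefSeq accession (10835), symbol (5196) or older symbol (3478), and 21503 kept the file's name.

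The labels state that samples were paired, so the ratio within an array is the paired difference. Deviations of the channels of an array correlated at 0.13, 0.11, 0.06 and 0.23, and at most at 0.03 with a channel of another array. The channels of an array also share its spots, so these correlations cannot tell whether the samples were paired. The members and lists were chosen with earlier results of these data known. Named genes were, per list, up to 3 non-members past the threshold with the largest ratio, or the 2 with the smallest p, and the 3 nearest genes of each member. Genes named outside this rule are marked in the text. Other probes are given where they differ by over 1. Alternatives were no background correction, median centring, scanner ratios, other filters, outliers kept, the brightest probe per gene, no replicate block and leaving out each replicate. With no replicate block, average intensities were also quantile-normalized between arrays, as in no other setting.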

Additional observations from a re-analysis of the deposited data

Results flagged for a closer look

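In 2 of 48 sets of 4 array values, a single array stood far from the other 3, where chance gives about 1 in 20. Nes probe 1 had a ratio of -0.23 in replicate 4, against 6.51 to 7.29 in the others. Cldn5, an endothelial junction gene, had 2.43 in replicate 1, against 0.80 to 0.87 in the others.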

How the results depend on the processing

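In 8 probes, 0 passed the threshold under each setting except 1, Vim, with no replicate block (adjusted p = 0.0446). In that setting the channels were unpaired and intensities were also normalized between arrays. The median ratio of the 8 probes ran from 2.46 to 3.35 over all settings. The mean Fabp7 ratio turned to -0.32 with scanner ratios, -0.48 without replicate 1 and -0.04 without replicate 3 (-0.48 to 0.72 over the replicates left out), never past the threshold, and the cause was not tested. Over all kept probes, 163 calls became 277 (112 higher, 165 lower) with scanner ratios, 74 (26 and 48) with no filter on dim probes, 336 (165 and 171) with no replicate block, and 0 without any 1 of the 4 replicates, with fewer samples (2074 to 2647 probes at an unadjusted p under 0.05). Without each replicate the adjusted p of Ngfr in limma ran from 0.10 to 0.144, so Ngfr did not pass in any of these fits. The ensheathing and Schwann list then had 0 calls, against 1 with no filter, where Apoe did not pass (adjusted p = 0.0635), and the microglia and macrophage list had 0. With no replicate block 1 gene passed in each of the intermediate filament (Vim), astrocyte (Glul, adjusted p = 0.0146) and smooth muscle (Mcam, adjusted p = 0.0248) lists, and with scanner ratios 1 of the fatty acid binding proteins (Fabp4). Median centring shifted the median of all probes to 0.12 and gave 44 higher and 81 lower. The p75Low signals of Npy and Gfap (7.52 to 31.9 scanner units), and of S100b in replicates 2 to 4 (8.78 to 18.7), lie below the background offset of 50, which limits their ratios. Fabp7 signals of replicate 4 (15.3 in p75High and 14.7 in p75Low) lie below it as well. The Fabp7 ratio of that replicate was -0.17, and -1.64 by the scanner.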
